A study of Mus musculus with 32 samples.

Results

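Ubr4, the gene of a giant ubiquitin ligase, was followed across mouse lung tumors in which the tumor suppressor gene Lkb1 had been switched off and then switched on again, beside the family members Ubr1, Ubr2, Ubr3 and Ubr7 and the partner ligase gene Kcmf1. These 6 genes were taken by name from 53558 genes in the expression tables. Ubr4 had been picked because it fell on Lkb1 restoration with little spread, and the other 5 were set beside it for comparison. The reason for the choice does not name a Trp53 status and was read here as the Trp53 wild-type comparison. Values of Ubr4 in those tumors are therefore described below without a test. On that reading, the Trp53-deficient tumors and the KT tumors set against them had no part in the choice. Earlier results of these data were known, however, so p-values of Ubr4 there may not be independent of it.

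RNA was sequenced from tdTomato-positive neoplastic cells sorted from lung tumors, with cells bearing CD45, CD31, F4/80 or Ter119 excluded. All mice carried KrasLSL-G12D and Rosa26LSL-tdTomato and received lentiviral Cre in the airways, so that tumors arose in the lung epithelium. KT tumors (4 libraries) had no other allele, kept Lkb1 and were untreated. Lkb1XTR/XTR is an allele that Cre turns off and FLPo recombinase turns on again. Non-restored Lkb1XTR/XTR tumors (10 libraries) came from mice with Rosa26FLPo-ERT2 given corn oil vehicle (6 libraries) or from mice without it given tamoxifen (4 libraries). Restored tumors (7 libraries) came from Lkb1XTR/XTR mice with Rosa26FLPo-ERT2 given tamoxifen. The same designs on Trp53flox/flox gave 7 non-restored libraries, which by their titles came from 4 animals (2 with FLPo-ERT2 and vehicle, 2 without it and tamoxifen) and were summed per animal, and 4 restored libraries with FLPo-ERT2 and tamoxifen. Tumors grew for 24 to 27 weeks with wild-type Trp53 and for 16 to 19 weeks with Trp53 deficiency, and vehicle or 4 mg doses of tamoxifen ran for the last 2 weeks. Trp53 status and tumor age therefore cannot be told apart. KT mice were also untreated, had been given a lower dose of virus than the Trp53 wild-type Lkb1XTR/XTR mice, and differ in those respects together with Lkb1. The Trp53 wild-type Lkb1XTR/XTR libraries outnumber the mice of the study's cohorts. Each has its own title, but the labels do not say which share a mouse. The p-values that use these libraries measure spread between libraries and are too small where mice are shared. Animals with Trp53-deficient tumors were told apart by title only, and the 4 restored libraries each have their own title.

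Libraries held 1302482 to 5943951 expected counts, and KT libraries were the shallowest as a group (median 1766310). Stk11, the gene of LKB1, had at most 2.46 expected counts in any non-restored library and 18.25 to 129.83 in Trp53 wild-type restored libraries. Trp53 itself had 1 to 19 expected counts in Trp53-deficient libraries and 18 to 175 in the others. All 8 lung epithelial markers were detected in every sample. Their summed level was 8229 to 45961 CPM (counts scaled to library size) in non-restored tumors and 9104 to 24897 in Trp53-deficient non-restored tumors, against 27250 to 42596 in KT tumors, 28305 to 57250 in restored tumors and 24194 to 31032 in Trp53-deficient restored tumors. Summed leukocyte markers reached at most 107 CPM, with Cd3e at 0 in every group except non-restored tumors. Endothelial markers reached at most 91.5 CPM, and fibroblast markers at most 418 CPM outside the Trp53-deficient restored tumors (1.97 to 1478 CPM, median 156). In the sorted cell pools, a lower level per cell and fewer cells of a type cannot be told apart.

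Ubiquitin ligases choose the proteins that receive ubiquitin, the tag that sends a protein to the proteasome. UBR proteins share a zinc-binding UBR box. In UBR1, UBR2 and UBR4 this box recognizes N-degrons, destabilizing residues at the start of a protein, whereas UBR3 and UBR7 carry the box but are not established N-degron readers. UBR1 and UBR2 are close relatives that work with the ubiquitin-conjugating enzymes UBE2A and UBE2B. UBR4 is far larger, binds calmodulin, and assembles with the ligase KCMF1 into a complex that removes mislocalized mitochondrial precursor proteins and helps to end the integrated stress response.

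Ubr4 lies on the plus strand of mouse chromosome 4 (GRCm38, chr4:139352609-139489588). Its full-length protein-coding transcripts of 15928 and 15798 bases, each with 106 exons, start at position 139380659. Kcmf1 lies on the minus strand of chromosome 6 (chr6:72841114-72899979), Ubr1 on the minus strand of chromosome 2 (chr2:120860269-120970715), Ubr3 on the plus strand of chromosome 2 (chr2:69897246-70024013), Ubr2 on the minus strand of chromosome 17 (chr17:46928295-47010556) and Ubr7 on the plus strand of chromosome 12 (chr12:102757967-102777707). All 6 are annotated as protein coding.

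The promoters of Ubr4 and Kcmf1 are shown because the products of these 2 genes form a complex and both genes were lower in restored tumors. Each sequence is the 250 bases before the gene start in RefSeq (GRCm38.p6), 5′ to 3′ on the strand of the gene, at chr4:139380409-139380658 on the plus strand for Ubr4 and chr6:72899980-72900229 on the minus strand for Kcmf1. Capitals mark matches, on either strand, to the GC box GGGCGG, the cyclic AMP response element (CRE) core TGACG, or the composite C/EBP-ATF element TGANGCAA.
Ubr4: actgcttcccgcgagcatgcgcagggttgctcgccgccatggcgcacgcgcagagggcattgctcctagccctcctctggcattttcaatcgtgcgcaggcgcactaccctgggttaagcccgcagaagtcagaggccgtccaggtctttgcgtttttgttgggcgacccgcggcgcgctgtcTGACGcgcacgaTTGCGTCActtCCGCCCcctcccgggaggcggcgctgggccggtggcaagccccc
Kcmf1: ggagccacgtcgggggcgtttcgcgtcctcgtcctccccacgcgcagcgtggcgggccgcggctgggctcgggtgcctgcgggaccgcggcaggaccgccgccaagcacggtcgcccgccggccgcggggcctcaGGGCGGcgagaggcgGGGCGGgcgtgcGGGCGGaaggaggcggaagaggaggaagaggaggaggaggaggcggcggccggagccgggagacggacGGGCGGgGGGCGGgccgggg

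The Ubr4 window holds a GC box 44 bases upstream of the gene start, CRE cores at 67 and 52 bases upstream, and a composite element at 55 bases upstream that overlaps the nearer CRE core. The Kcmf1 window holds 5 GC boxes and none of the other motifs. Among 32851 mouse promoters of the same length, 32.7% hold a GC box, 17.8% a CRE core and 3.12% the composite element. Neither window matches the full CRE TGACGTCA (1.55% of promoters) or the C/EBP palindrome TTGCNNAA (9.56%). Ubr1 has 1 GC box, Ubr3 and Ubr7 have 3 each, and Ubr2 has no match to any of the 5 motifs. The GC content was 67.6% for Ubr4 and 81.2% for Kcmf1, against a median of 52.4%. These matches are letters in a window, and binding was not measured.

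To follow Ubr4 across tumor states, its level was read in every tumor as CPM after normalization by the trimmed mean of M values. In Trp53 wild-type restored tumors, the 7 libraries held 208, 214, 225, 228, 231, 239 and 278 CPM. In the 10 non-restored libraries, Ubr4 ran from 360 to 422 CPM with a median of 394. Every restored library therefore lay below every non-restored library, with a gap between 278 and 360. The 4 KT libraries held 208, 232, 264 and 290 CPM and overlapped the restored range. Group means were 249 ± 35.7 CPM in KT tumors (SD, n = 4), 389 ± 21 in non-restored tumors (SD, n = 10) and 232 ± 22.8 in restored tumors (SD, n = 7).

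**Figure D1:**
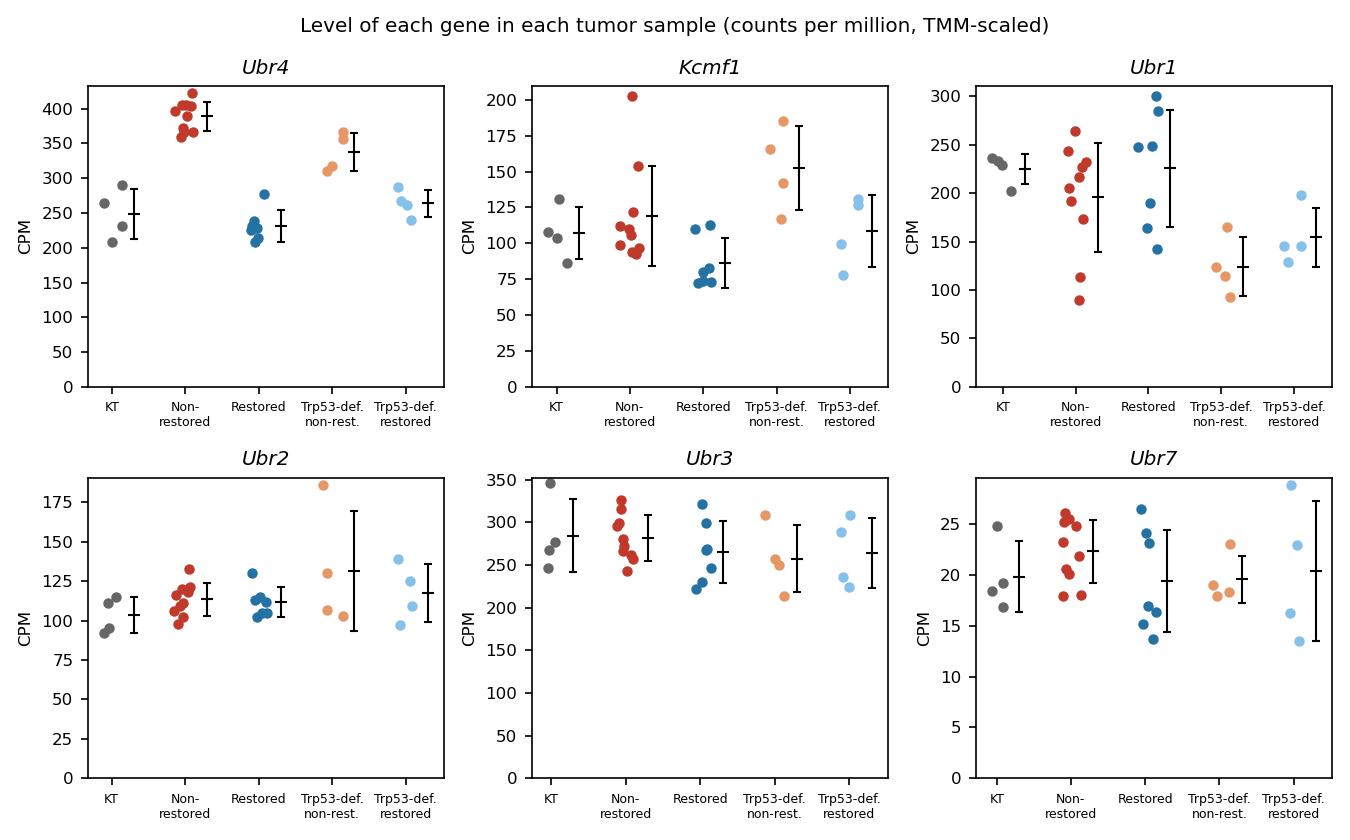
Level of each of the 6 genes by tumor group. The vertical axes give CPM, each point is a library (or an animal, for Trp53-deficient non-restored tumors), and bars give the mean and SD. Ubr4 sits at 360 to 422 CPM in non-restored tumors and at 208 to 278 CPM in restored tumors, whereas the ranges of Ubr2, Ubr3 and Ubr7 overlap in every pair of groups.

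On the log2 scale Ubr4 was lower in restored than in non-restored tumors by 0.76 (log2 difference -0.76 ± 0.081, SE), a level 1.69-fold higher in the non-restored state. This is taken as the value by which it was chosen. For scale, 236 of 12636 genes (1.87%) passed an adjusted p of 0.05 in that comparison by edgeR's quasi-likelihood test, and 26 genes (0.206%) were lower in every restored than in every non-restored library. Ubr4 was higher in non-restored than in KT tumors by 0.65 ± 0.099 (log2, SE), with no overlap of libraries, in a comparison in which 5.86% of genes passed and 1.46% were higher without overlap. Restored and KT tumors differed by -0.11 ± 0.10 (log2, SE), where 0.459% of all genes passed. All restored animals were female. Among females, Ubr4 was 367 to 405 CPM in 7 non-restored libraries, 208 to 232 in 2 KT libraries, and the restored difference was -0.74. Of the non-restored libraries, the 3 from males held 360 to 422 CPM.

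Ubr4 also varied little within groups. Its pooled SD within the 5 groups was 0.124 log2 units, and 1.22% of 1226 genes of similar or higher abundance had a smaller one. The median among those genes was 0.263. The pooled SD was 0.404 for Ubr1, 0.316 for Kcmf1, 0.293 for Ubr7, 0.195 for Ubr2 and 0.184 for Ubr3. Low spread was among the reasons Ubr4 was picked, so these figures are descriptive.

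Trp53-deficient tumors asked whether Ubr4 was lower after restoration in libraries outside the Trp53 wild-type comparison. Whether they too had a part in the choice is not known, so the p-values below are not independent support. The 4 non-restored animals held 311, 318, 356 and 366 CPM, and the 4 restored tumors held 240, 261, 268 and 287 CPM. The groups did not overlap in CPM. They did overlap in TPM, RSEM's length-scaled unit, at 21.4 to 40.8 TPM in restored tumors and 28.3 to 38.2 TPM in non-restored animals. The difference was -0.33 ± 0.13 (log2, SE, 95% interval -0.57 to -0.08). An exact two-sided permutation test over animals, as told apart by title, gave p = 0.0286, the smallest p that 4 against 4 can give. In the model across all genes by edgeR, the unadjusted p was 0.0255 and the adjusted p was 0.803, so the call was not made genome-wide. No gene passed there (0 of 12518, 0%), whereas 748 had an unadjusted p below 0.05 and DESeq2 called 23. A share of 1.78% of genes were lower without overlap in restored Trp53-deficient tumors. In the single fit of all 5 groups, whose estimates differ slightly from those of the separate fits, the 2 restoration differences of Ubr4 lay 0.39 ± 0.13 apart (log2, SE), with the larger drop in Trp53 wild-type tumors. That gap was not tested, because the wild-type value chose the gene. All Trp53-deficient restored tumors were from females, and the 2 female non-restored animals held 318 and 366 CPM. Epithelial marker sums in these groups overlapped little, at 9104 to 24897 CPM (median 17031) before and 24194 to 31032 CPM (median 27897) after restoration, and their part in the Ubr4 difference was not tested.

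The treatment arms of the non-restored tumors overlapped in Ubr4. The vehicle arm held 367 to 406 CPM (median 394, n = 6) and the tamoxifen arm 360 to 422 CPM (median 386, n = 4). The tamoxifen minus vehicle difference was 0.01 ± 0.11 (log2, SE), which is given without a test, because both arms are libraries in which Ubr4 was chosen for its low spread. In this comparison 1 of 12636 genes passed (0.00791%). The arms also differ in FLPo-ERT2 itself, which the vehicle arm carried.

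Ubr4 was then set against KT tumors. Trp53-deficient non-restored tumors were higher by 0.44 ± 0.11 (log2, SE), 1.36-fold, with an edgeR adjusted p of 0.00956 and no overlap (311 to 366 against 208 to 290 CPM). That adjusted p rests on a spread estimated over all 5 groups, which include the Trp53 wild-type libraries in which Ubr4 was chosen for low spread. The exact permutation p was 0.0286, again the smallest possible. That comparison had a wide background, in which 11.6% of 13273 genes passed and 10.8% were higher without overlap. The call was absent when transcript length entered the scale: the difference was 0.14 with length offsets (edgeR adjusted p = 0.764) and 0.26 on log2 TPM (limma adjusted p = 0.535). A fit of those 2 groups alone uses none of the Trp53 wild-type Lkb1XTR/XTR libraries. It gave a difference of 0.43 with an edgeR adjusted p of 0.0734, so the call rests on the wider fit. Trp53-deficient restored tumors, at 240 to 287 CPM, lay within the KT range, with a difference of 0.09 ± 0.11 (log2, SE, 95% interval -0.12 to 0.30, edgeR adjusted p = 0.682 in the same wider fit, exact permutation p = 0.429), where 1.77% of genes passed.

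Ordered by mean CPM, Ubr4 rose from restored (232) through KT (249), Trp53-deficient restored (264 ± 19.4, SD, n = 4) and Trp53-deficient non-restored (338 ± 27.4, SD, n = 4) to non-restored tumors (389). The lower 3 groups overlapped one another, and the upper 2 overlapped at 360 to 366 CPM. Across Trp53 status, Ubr4 was lower by 0.20 ± 0.09 (log2, SE) in Trp53-deficient than in wild-type non-restored tumors and higher by 0.19 ± 0.094 in restored tumors. These comparisons use the choosing libraries and have no p for Ubr4.

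**Figure D2:**
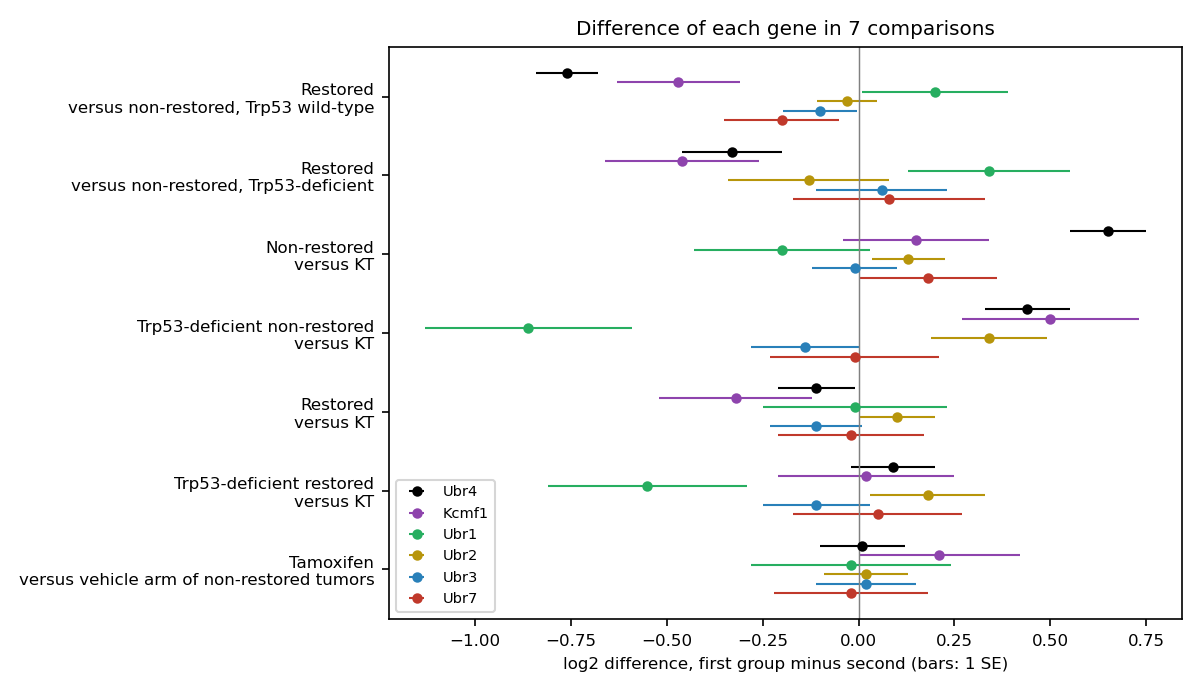
Log2 differences of the 6 genes in 7 comparisons. The horizontal axis gives the log2 difference between the named groups, points are edgeR estimates, 1 color per gene, and bars are 1 SE. Ubr4 lies at -0.76 on restoration with wild-type Trp53 and at -0.33 with Trp53 deficiency, and Ubr1 lies at -0.86 in Trp53-deficient non-restored against KT tumors.

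Kcmf1, the ligase partner of UBR4, also had lower values in restored tumors. The 7 restored libraries held 72.7, 73.1, 73.9, 80.3, 83.1, 110 and 113 CPM, and the 10 non-restored libraries ran from 92.8 to 203 CPM with a median of 108. The groups overlapped, since 2 restored libraries exceeded the non-restored median. The difference was -0.47 ± 0.16 (log2, SE, 95% interval -0.79 to -0.15), and it carries no test because Kcmf1 was read from the libraries that chose Ubr4. In Trp53-deficient tumors, Kcmf1 was 77.8, 99.5, 127 and 131 CPM in restored tumors and 117, 142, 166 and 185 CPM in non-restored animals. That difference of -0.46 ± 0.20 (log2, SE, 95% interval -0.85 to -0.07) did not pass, with an unadjusted p of 0.0442, an edgeR adjusted p of 0.803 and an exact permutation p of 0.0857.

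Against KT tumors (86.6, 104, 108 and 131 CPM), Kcmf1 differed by 0.15 ± 0.19 in non-restored and by -0.32 ± 0.20 in restored tumors (log2, SE, edgeR adjusted p = 0.707 and 0.617). In Trp53-deficient non-restored tumors it was 0.50 ± 0.23 above KT (log2, SE), with an edgeR adjusted p of 0.138 and an exact permutation p of 0.0571. On log2 TPM that difference had an adjusted p of 0.032 by limma. Trp53-deficient restored tumors differed from KT by 0.02 ± 0.23 (edgeR adjusted p = 0.978). The highest Kcmf1 value, 203 CPM, was in non-restored replicate 8, which also had the lowest epithelial marker sum of all samples, 8229 CPM. In every group except Trp53-deficient restored tumors, the sample with the highest Kcmf1 had the lowest epithelial marker sum of its group. The part of epithelial marker level in the Kcmf1 values was not tested.

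Ubr1, the founding mammalian N-degron reader, followed another order. KT tumors held 202, 229, 233 and 236 CPM. Trp53-deficient non-restored animals held 92.3, 114, 124 and 165 CPM, all below KT. Trp53-deficient restored tumors held 129, 145, 145 and 198 CPM and were also all below KT. The difference from KT was -0.86 ± 0.27 in non-restored tumors (log2, SE, edgeR adjusted p = 0.035, exact permutation p = 0.0286), or 1.82-fold lower. In restored tumors it was -0.55 ± 0.26, with an edgeR adjusted p of 0.253 and an exact permutation p of 0.0286. The shares of all genes lower without overlap were 10% and 6.11% in these comparisons. The call on Ubr1 in non-restored tumors was not stable, since it was kept in 6 of 17 alternative analyses and its adjusted p reached 0.168. It was lost on leaving out any of the 4 KT libraries or 3 of the 4 Trp53-deficient non-restored animals, with differences from -0.89 to -0.73 and adjusted p from 0.0553 to 0.132 by edgeR. Epithelial marker sums were lower in the Trp53-deficient non-restored tumors than in every KT tumor (9104 to 24897 against 27250 to 42596 CPM), and their part in the Ubr1 difference was not tested.

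With wild-type Trp53, Ubr1 ranged from 89.4 to 264 CPM in non-restored tumors (median 211) and from 142 to 300 CPM in restored tumors (median 248). The restored difference was 0.20 ± 0.19 (log2, SE), given without a test. In Trp53-deficient tumors the restored difference was 0.34 ± 0.21 (edgeR adjusted p = 0.803, exact permutation p = 0.229). Non-restored and KT tumors differed by -0.20 ± 0.23 (edgeR adjusted p = 0.661). Across Trp53 status, Ubr1 was lower in deficient tumors by 0.66 ± 0.23 (log2, SE) in the non-restored state (edgeR adjusted p = 0.133, 0.753% of genes passing) and by 0.55 ± 0.24 in the restored state (edgeR adjusted p = 0.265, 0.445% passing). Leaving out non-restored replicate 8, the lowest Ubr1 library at 89.4 CPM, changed the former to -0.74 with an adjusted p of 0.0189, and the number of genes passing from 100 to 1492. Without that library Kcmf1 also passed there, at 0.48 with an adjusted p of 0.047 by edgeR, against 0.36 ± 0.18 and 0.3 with it. In the restored state Kcmf1 was 0.33 ± 0.20 higher with Trp53 deficiency (edgeR adjusted p = 0.413).

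On the count scale, Ubr2, Ubr3 and Ubr7 differed little among tumor states. Ubr2, whose loss is known to block male meiosis, was 92.4 to 115 CPM in KT, 97.9 to 133 in non-restored and 102 to 130 in restored tumors. Its restored differences were -0.03 ± 0.079 with wild-type Trp53 and -0.13 ± 0.21 with Trp53 deficiency (log2, SE). Ubr2 was highest in 1 Trp53-deficient non-restored animal at 186 CPM, the other 3 holding 103, 107 and 130, and that group lay 0.34 ± 0.15 above KT (edgeR adjusted p = 0.12). Leaving out the animal at 103 CPM raised this to 0.46 with an adjusted p of 0.04, and among females it also passed. Ubr3, a UBR-box RING ligase, was 243 to 326 CPM in non-restored and 222 to 322 in restored tumors, and differed on restoration by -0.10 ± 0.096 with wild-type Trp53 and by 0.06 ± 0.17 with deficiency. Ubr7, a UBR-box protein with a PHD finger, was the least abundant, at 13.5 to 28.8 CPM over all samples. Its restored differences were -0.20 ± 0.15 and 0.08 ± 0.25. On log2 TPM, the restored differences with wild-type Trp53 were larger. They were -0.24 ± 0.12 for Ubr2, -0.27 ± 0.13 for Ubr3 and -0.29 ± 0.14 for Ubr7 (SE, limma). On counts with Trp53 deficiency, the 95% intervals on restoration ran from -0.54 to 0.27 for Ubr2, from -0.26 to 0.39 for Ubr3 and from -0.42 to 0.58 for Ubr7. The Ubr4 estimate of -0.33 lies inside the intervals of Ubr2 and Ubr7 and outside that of Ubr3.

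Levels between genes can be compared only per length. In TPM, RSEM's length-scaled unit, group medians were 87.5 to 109 for Ubr3, 44.9 to 94.3 for Kcmf1, 26.5 to 53.2 for Ubr1, 24.7 to 42.5 for Ubr4, 24.6 to 31.8 for Ubr2 and 7.37 to 10.1 for Ubr7. By these values the most abundant UBR message per length was that of Ubr3, although Ubr4 gave more reads than Ubr3 in non-restored tumors. The Ubr3 values rest on lengths assigned by RSEM with group medians of 3839 to 4167 bases. Its longest coding transcripts have 8072 and 8081 bases.

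The TPM of Ubr4 depended on the transcripts to which RSEM assigned its reads. The gene has 12 annotated transcripts, of which 5 are protein coding, 5 retained-intron and 2 processed transcripts, and the mean length assigned to it ranged from 6307 to 15571 bases over libraries. In restored replicate 6 the assigned length was 6307 bases and Ubr4 stood at 60 TPM, above every non-restored library, while its count-based level of 278 CPM was below every non-restored library. The other 6 restored libraries held 17.5 to 25.6 TPM, below the non-restored range of 33.7 to 52 TPM. On log2 TPM the restored difference was -0.64 with all libraries and -0.84 without that library. With length offsets in edgeR it was -0.47 and, without that library, -0.75. KT libraries had assigned lengths of 9866 to 12468 bases, against 9903 to 14674 in non-restored tumors, and the non-restored difference from KT was 0.36 with length offsets. Assigned lengths were not particular to Ubr4 in varying. Over samples they ran from 3435 to 7715 bases for Ubr1, 4037 to 7090 for Ubr2, 3044 to 5079 for Ubr3 and 2273 to 2937 for Kcmf1. Ubr7 has 1 transcript and a single assigned length.

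**Figure D3:**
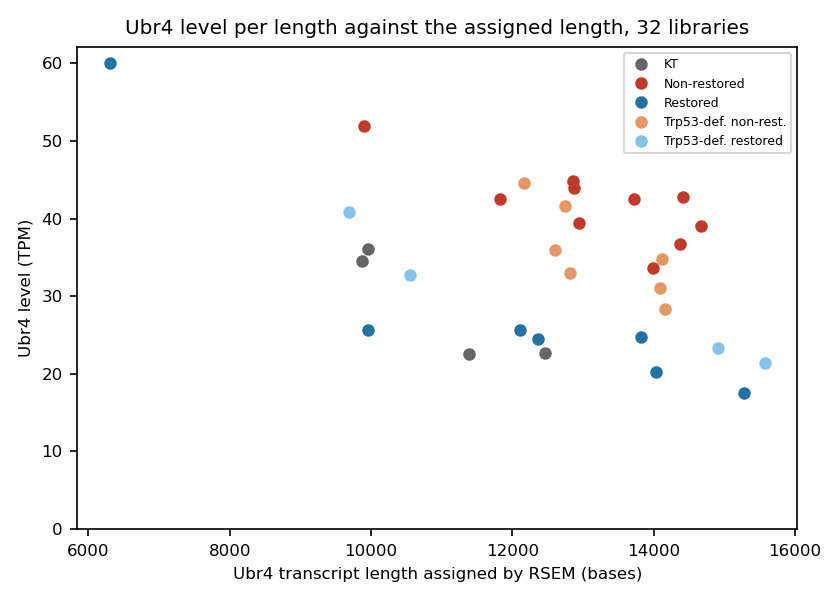
Ubr4 per library against the transcript length RSEM assigned to it. The horizontal axis gives the assigned length in bases and the vertical axis gives TPM, with 1 point per library (32 in all) colored by group. Restored replicate 6 stands alone at 6307 bases and 60 TPM, and the other restored libraries hold 17.5 to 25.6 TPM.

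Genes beside Ubr4 were read for differences in the same comparisons. Of 21 annotated genes within 250 kb, 10 including Ubr4 were abundant enough to test. On restoration with wild-type Trp53 none of the other 9 passed, beside 1.87% of all genes, a share at which few or none of 9 would pass. Their differences lay between -0.62 ± 0.44 for Iffo2 and 0.65 ± 0.21 for Aldh4a1 (log2, SE). Emc1, a subunit gene of an endoplasmic reticulum membrane complex whose body overlaps a shorter Ubr4 transcript, differed by -0.27 ± 0.13 with wild-type Trp53 and by -0.01 ± 0.17 with Trp53 deficiency. Capzb, an actin-capping protein gene, differed by -0.33 ± 0.16 and -0.24 ± 0.15. In Trp53-deficient non-restored against KT tumors, where 11.6% of all genes passed, Minos1 (0.60 ± 0.15, adjusted p = 0.0127), Capzb (0.81 ± 0.21, adjusted p = 0.0141) and Iffo2 (1.93 ± 0.59, adjusted p = 0.035) were also higher by edgeR.

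**Figure D4:**
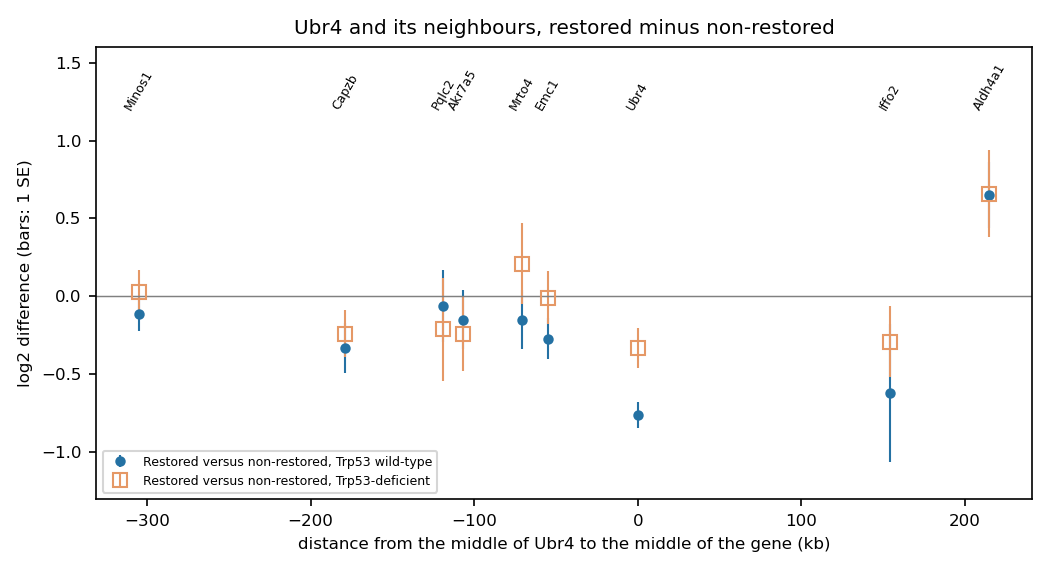
Restoration differences of tested genes within 250 kb of Ubr4. The horizontal axis gives the distance of each gene's midpoint from that of Ubr4 in kb, the vertical axis gives the log2 difference between restored and non-restored tumors with SE bars, and marker shape gives Trp53 status. Ubr4 lies at -0.76 and -0.33, and 2700016F22Rik, which had 0 counts in some libraries of the wild-type groups, is not drawn.

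The genes around UBR4 in the pathway were read as lists. On restoration with wild-type Trp53, where 1.87% of all genes passed, 1 of 8 N-degron and UBR-box genes passed: Sqstm1, the gene of an autophagy receptor that binds N-degrons, rose by 0.48 ± 0.11 (108 to 147 against 78.4 to 99.9 CPM). The median of the list was -0.15, against -0.01 over all genes. None of 9 other very large ubiquitin ligase genes passed, although 8 had differences below 0 (median -0.13), among them Herc2 at -0.28 ± 0.17 and Huwe1 at -0.13 ± 0.081. The 194 genes with transcripts of at least 8000 bases had a median of -0.07. Of 21 tested genes of the integrated stress response none passed. Their differences ran from -1.09 to 0.56, with 11 above 0, 10 below 0 and a median of 0.01. None of 6 ubiquitin and E1 enzyme genes passed either (median -0.03).

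Proteasome subunit genes, whose products degrade what the ligases tag, were all below 0 on restoration with wild-type Trp53. Of 31 subunits, 2 passed, beside 1.87% of all genes: Psmb5, a catalytic subunit, fell by 0.56 on the log2 scale (25.3 to 47.9 against 35.6 to 71.3 CPM) and Psma2 fell by 0.35 (167 to 206 against 176 to 282 CPM). The median was -0.25 against -0.01 for all genes. With Trp53 deficiency 30 of 31 lay below 0 (median -0.20, all genes 0.02). None passed, in a comparison in which 0 of 12518 genes passed. The subunits were read in the same libraries, so their signs are not separate observations. In non-restored against KT tumors 3 of 31 passed, all higher, beside 5.86% of all genes, namely Psmc2 (0.45 ± 0.13, adjusted p = 0.0353), Psmd7 (0.44 ± 0.13, adjusted p = 0.0399) and Psmd11 (0.51 ± 0.15, adjusted p = 0.0448) by edgeR, and the large ligase gene Herc1 was higher by 0.41 ± 0.12 (adjusted p = 0.0381). In Trp53-deficient non-restored against KT tumors 9 of 31 passed, again all higher, beside 11.6% of all genes (median 0.37, all genes 0.00), led by Psmc2 at 0.79 ± 0.14 with an edgeR adjusted p of 0.000934.

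The integrated stress response list had 5 of 22 genes passing in Trp53-deficient non-restored against KT tumors, 4 higher and 1 lower, beside 11.6% of all genes. Psat1, a serine synthesis enzyme gene, rose by 1.35 ± 0.32 (adjusted p = 0.0094), Mthfd2, of mitochondrial folate metabolism, rose by 1.66 ± 0.41 (adjusted p = 0.0108), and Sesn2, which p53 also induces, was lower by 1.18 ± 0.32 (log2, SE, edgeR adjusted p = 0.0207). The N-degron list had Fbxo11 higher there by 0.52 ± 0.15 (edgeR adjusted p = 0.0255). On Trp53-deficient restoration none of the genes of the 6 lists passed, in a comparison in which 0 of 12518 genes passed. Between Trp53-deficient and wild-type non-restored tumors, 1 of 5 E2 enzyme and calmodulin genes passed, beside 0.753% of all genes. It was Calm2, higher by 0.54 ± 0.11 (edgeR adjusted p = 0.0114). In the same comparison 2 of 31 proteasome genes passed, both higher, and 1 of 22 integrated stress response genes, lower. The number of genes passing there ran from 26 to 1492 on leaving out 1 sample.

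**Figure D5:**
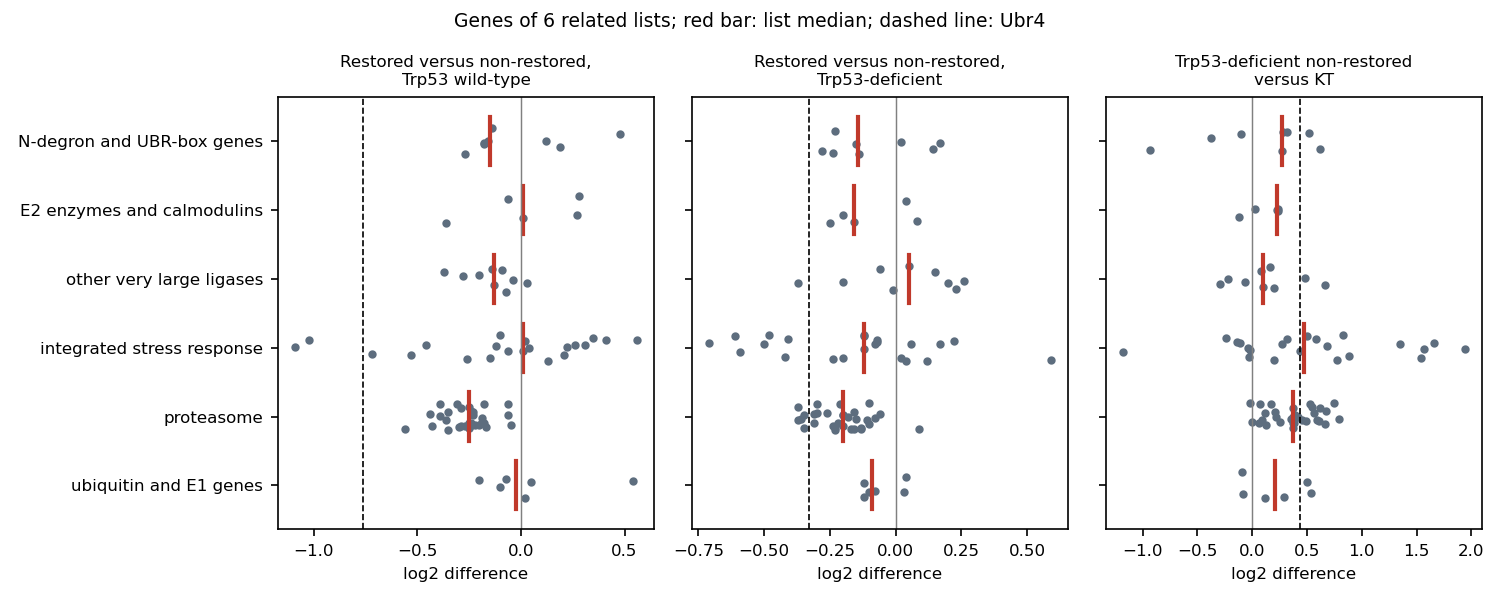
Differences of the listed genes on restoration with wild-type Trp53 (left), on restoration with Trp53 deficiency (middle) and between Trp53-deficient non-restored and KT tumors (right). The horizontal axes give log2 differences, each point is a gene, the red bar is the list median and the dashed line is Ubr4. Proteasome genes lie below 0 in 31 of 31 cases with wild-type Trp53 and in 30 of 31 with Trp53 deficiency, with medians of -0.25 and -0.20.

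The genes whose pattern was most like that of Ubr4 were sought among 1225 genes of similar or higher abundance, by the root mean square distance between log2 CPM values centered on each gene's mean over 29 samples. The nearest were Btaf1 (0.246), Kif5b (0.258), Lamc1 (0.259) and Aff4 (0.269), against a median distance of 0.445. Kif5b, a kinesin heavy chain gene, had median levels of 457 CPM in KT, 739 in non-restored and 528 in restored tumors. Its restored differences were -0.47 with wild-type Trp53 and -0.21 with Trp53 deficiency. Btaf1, a regulator of TATA-binding protein, had medians of 140, 176 and 144 CPM in the same groups and differed on restoration by -0.33 and -0.20. Aff4 differed by -0.36 and -0.18. Lamc1 differed by -0.41 with wild-type Trp53 but by 0.09 with Trp53 deficiency. A low distance also reflects low spread, which Ubr4 has.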

How the data were processed

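Neoplastic cells sorted from lung tumors were profiled by paired-end RNA-seq from rRNA-depleted libraries. The authors aligned reads to mm10 with STAR 2.6.1d and estimated abundance with RSEM 1.2.30, and deposited expected counts and TPM per gene for each of 32 libraries; DESeq2 1.26.0 is named in their notes. Expected counts (5.57% not whole) were rounded here and tested with edgeR 4.0.16 (R 4.3.3): TMM normalization, filterByExpr, robust quasi-likelihood F tests, and p-values adjusted by Benjamini-Hochberg across every gene in the fit, threshold 0.05. SE was the log2 difference divided by the square root of F, and intervals are 1.96 SE. The 21 Trp53 wild-type libraries shared a fit of 3 groups, or of 4 with the arms of non-restored tumors separated, the 8 Trp53-deficient animals had their own fit, and comparisons across Trp53 status or of Trp53-deficient tumors with KT used 29 samples in 5 groups. Single genes were also tested by exact two-sided permutation of log2 CPM. The fits were tested on simulated counts.

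Deposited TPM served for levels per length (log2 of TPM + 1, limma 3.58.1), since RSEM scales it by the length it assigns to a gene in each library. DESeq2 1.42.0, other size factors and filters, length offsets, a replicate block, female libraries, single libraries of an animal and leaving out each library or animal were alternatives. A count of 0 allowed up to 0.505 to 2.3 CPM per library (3 counts), for counting error only. Genes named are the 6 ligase genes, Stk11 and Trp53 as checks of the labels, genes tested within 250 kb of Ubr4, at most 3 called genes per list and comparison, with the smallest adjusted p, and the 5 genes nearest in pattern, except for a few genes that are not reported here; the large ligases Herc2 and Huwe1 were named after their values were seen. The genes and lists were chosen with earlier results of these data known. Lists were described by counts and medians without set tests. Transcript models and promoters came from GRCm38 annotation and RefSeq, in which all 6 genes matched by symbol.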

Additional observations from a re-analysis of the deposited data

Results flagged for a closer look

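Ubr4 per length in restored replicate 6 stood at 60 TPM, against 25.6 TPM in the next of the 7 restored libraries, a gap of 0.809 of the group's range where 0.568 marks a sample far from the others. RSEM assigned Ubr4 its shortest length in that library, 6307 bases, and its count-based level was 278 CPM. Of 40 groups of values examined this was the only one so marked, and chance marks about 1 in 20, or 2 of 40. No cause was tested.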

How the results depend on the processing

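Most changes to the Ubr4 differences came with transcript length. Length offsets moved the restored minus non-restored difference to -0.47 and log2 TPM moved it to -0.64. They moved non-restored minus KT to 0.36 (offsets, also without the restored library of shortest length), and Trp53-deficient minus wild-type restored to 0.05. Without that library, restored minus KT became -0.39 (offsets) and -0.30 (log2 TPM), and Trp53-deficient minus wild-type restored became 0.31 in both. That exclusion was chosen after seeing the data. Trp53-deficient non-restored minus KT was no longer called with offsets (0.14, or 0.13 without the library), with log2 TPM (0.26, and 0.26 without the library) or in a fit of the 2 groups (0.43), while 14 of 19 alternatives kept it. Trp53-deficient restored minus KT, 0.09, became -0.06 and -0.07 with offsets. Among females non-restored minus KT was 0.81 and restored minus KT 0.07. The difference between arms, 0.01, became -0.03 with offsets, -0.10 on log2 TPM, 0.00 with DESeq2 and among females, -0.03 with at least 10 counts in every library, and -0.01 with median-of-ratios factors or a fit of the 2 groups. No Ubr4 difference on Trp53-deficient restoration was called in 16 alternatives (adjusted p from 0.445 to 1). The cause was not tested.

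Counts of genes passing moved with the tool. DESeq2 called 467 for restored against non-restored, 168 for restored against KT, 23 for Trp53-deficient restoration, 12 between arms, 689 for Trp53-deficient restored against KT, and 481 (non-restored) and 213 (restored) across Trp53 status. The tamoxifen arm only gave 50 for restoration and 280 against KT. No filter gave 3 for Trp53-deficient restoration, 0 between arms, and 944 (non-restored) and 114 (restored) for Trp53-deficient against KT. Female libraries gave 132, 10, 202 and 29 against KT (non-restored, restored, and both Trp53-deficient groups) and 51 across Trp53 status. A fit of the 2 groups gave 0 between arms, 566 for Trp53-deficient restored against KT, and 24 and 97 across Trp53 status. Log2 TPM gave 1 for Trp53-deficient restoration, 0 between arms, 427 for Trp53-deficient restored against KT and 48 across Trp53 status in non-restored tumors. Length offsets gave 1 for Trp53-deficient restoration, a count minimum gave 20 (restored) and 156 (Trp53-deficient restored) against KT, and separate libraries gave 1 for Trp53-deficient restoration and 480 across Trp53 status.

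Leaving out 1 library or animal gave 145 (without restored replicate 7) to 319 genes for restoration, 340 (without KT replicate 1) to 951 for non-restored against KT, 21 (without KT replicate 1) to 57 for restored against KT, 0 to 1 for Trp53-deficient restoration (1 without Trp53-deficient non-restored replicate 6) and between arms, 635 (without Trp53-deficient non-restored replicate 7) to 2007 and 53 (without KT replicate 1) to 173 for the Trp53-deficient groups against KT, 26 (without Trp53-deficient non-restored replicate 7) to 1492 (without non-restored replicate 8) across Trp53 status in non-restored tumors and 30 (without Trp53-deficient restored replicate 3) to 76 in restored tumors. Single genes near 0 ranged across 0: between arms, Ubr4 -0.05 to 0.05, Kcmf1 -0.11 to 0.32, Ubr1 -0.22 to 0.22, Ubr2 -0.02 to 0.07, Ubr3 -0.07 to 0.06 and Ubr7 -0.09 to 0.05; restored against KT, Ubr1 -0.09 to 0.08, Ubr3 -0.17 to 0.01 and Ubr7 -0.12 to 0.11; non-restored against KT, Ubr3 -0.08 to 0.10; restoration, Ubr2 -0.06 to 0.00; Trp53-deficient restoration, Ubr2 -0.24 to 0.06, Ubr3 -0.03 to 0.17 and Ubr7 -0.14 to 0.23; Trp53-deficient non-restored against KT, Ubr7 -0.08 to 0.12; Trp53-deficient restored against KT, Kcmf1 -0.07 to 0.16, Ubr3 -0.17 to 0.00 and Ubr7 -0.15 to 0.22; across Trp53 status in restored tumors, Ubr3 -0.08 to 0.09 and Ubr7 -0.13 to 0.24.

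Uncalled values near 0 also changed sign elsewhere. Against KT, Ubr3 in non-restored tumors was 0.17 on log2 TPM, 0.02 without filter and 0.01 among females. In restored tumors against KT, Ubr2 was 0.00 with offsets, Ubr7 was 0.02 on log2 TPM, 0.00 with DESeq2, 0.01 without filter and 0.05 among females, and Ubr1 was 0.02 without filter, 0.04 among females and 0.00 with a count minimum. Ubr7 in Trp53-deficient non-restored tumors against KT was 0.01 with offsets or DESeq2, 0.08 on log2 TPM and 0.07 without filter. On Trp53-deficient restoration Ubr3 was -0.10 with offsets and -0.12 on log2 TPM. Between arms, Ubr1 was 0.02 with offsets and 0.01 without filter, Ubr7 0.01 without filter, Ubr2 -0.04 among females and -0.02 with a count minimum, and Ubr3 -0.15 with offsets, -0.23 on log2 TPM, -0.01 among females, -0.02 with a count minimum and 0.00 in a fit of the 2 groups. Ubr3 across Trp53 status in restored tumors was 0.03 without filter and 0.01 with DESeq2, separate libraries, median-of-ratios factors or a fit of the 2 groups. Same replicate numbers were not treated as pairs of the Trp53 wild-type samples in the main fits. Over 15 same-numbered pairs the correlation of deviations from group means ran from -0.055 to 0.501. Its median was 0.077, against -0.006 over differently numbered pairs. Of the same-numbered pairs 6 were over 0.1, and a library correlated best with its own number in 6 of 30 cases. Fitted as an alternative, the replicate block gave 0.01 for Ubr3 in non-restored tumors against KT, -0.11 for Ubr2 and -0.04 for Ubr3 between arms, 2 genes passing between arms, and -0.74 for Ubr4 on restoration, and changed no other call.

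Over the 6 genes and all alternatives, 985 values kept their direction (and, where tested, their side of the threshold), 105 changed sign, 16 lost a call, 5 gained one and 13 untested values moved by more than 1 SD between samples. Libraries of 1302482 counts limit Ubr7 most, with 23 to 153 counts per library.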

Other observations

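In 4 of the 5 groups the sample with the highest Kcmf1 was also the sample with the lowest Ubr1, a pattern noticed after the values were seen and not tested. In non-restored tumors this was replicate 8, with Kcmf1 at 203 CPM (next highest 154) and Ubr1 at 89.4 CPM (next lowest 113). In restored tumors it was replicate 4 (113 and 142 CPM), in Trp53-deficient non-restored tumors replicate 7 (185 and 92.3 CPM), and in Trp53-deficient restored tumors replicate 4 (131 and 129 CPM). In KT tumors Kcmf1 was highest in replicate 1 and Ubr1 lowest in replicate 3. In 3 of these 4 groups the same sample also had the lowest summed epithelial marker level of its group (8229, 28305 and 9104 CPM), and the exception was the Trp53-deficient restored group. KT replicate 1, with the highest Kcmf1 but not the lowest Ubr1, also had the lowest sum of its group (27250 CPM). Ubr4 did not stand apart in non-restored replicate 8, at 367 CPM within a group range of 360 to 422 CPM.

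Aldh4a1, a proline catabolism enzyme gene near Ubr4, had the same estimate on restoration with either Trp53 status, 0.65 ± 0.21 with wild-type Trp53 and 0.66 ± 0.28 with Trp53 deficiency (log2, SE), and passed in neither (edgeR adjusted p = 0.803 in the latter).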
